A study of Mus musculus with 25 samples.

Results

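Duodenum from wild-type mice given a 2.5% ethanol diet with ethanol gavage (WT_Half, n = 7 libraries) was compared with duodenum from wild-type mice on control diet (WT_Con, n = 4). These 11 libraries are all those with the 2 labels, of 25 in the series. All mice were male, the wild-type strain was C57BL/6N, and the diets began at 8 weeks of age and ran for 8 weeks. WT_Half mice also received 2 g/kg ethanol by gavage 2 times per week. The series text describes a last gavage of 5 g/kg ethanol, with tissue taken 9 hours later. It does not say whether the control mice were gavaged, so the 8 weeks of exposure and the last dose cannot be told apart. The other groups serve for comparison only: Aldh2KI mice on control diet (KI_Con, n = 4), Aldh2KI mice on the same ethanol regimen as WT_Half (KI_Half, n = 6), and wild-type mice on a 5% ethanol diet with 4 g/kg gavages (WT_Full, n = 4). Polyadenylated RNA was sequenced, and counts per gene totalled 29.5 to 44.8 M in WT_Con and 30.2 to 41.0 M in WT_Half (M being 1000000 counts). The labels do not say that each library came from a separate mouse, so p-values measure the spread between libraries.

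The duodenum receives swallowed ethanol soon after the stomach. Its epithelium renews from crypts, absorbs nutrients, calcium and iron, and holds resident T cells, while Brunner glands in the submucosa secrete mucus and bicarbonate. Ethanol is oxidised to acetaldehyde by alcohol dehydrogenases and then to acetate by aldehyde dehydrogenases, chiefly the mitochondrial enzyme encoded by Aldh2.

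The pieces of tissue were not alike in make-up. The 18 enterocyte markers were all detected in both groups, with a summed level of 26322 to 51414 counts per 1000000 (CPM) in WT_Con and 28404 to 50792 CPM in WT_Half. Brunner gland markers split the libraries. The mucin gene Muc6 was at 3397, 11.9, 21351 and 12438 CPM in WT_Con replicates 1 to 4 and at 47.6, 5279, 18.4, 17.5, 50.2, 7193 and 25.9 CPM in WT_Half replicates 1 to 7. Averaging log2 CPM over the gland genes Muc6, Gkn3 and Tff2, 3 of 4 WT_Con libraries (1, 3 and 4) and 2 of 7 WT_Half libraries (2 and 6) lay above 8 and are called rich in Brunner gland RNA. Over the marker list, 8 of 10 tested Brunner gland genes had a negative log2 fold change and 0 were called, and their summed level was 3377 to 59686 CPM in WT_Con and 3987 to 24833 CPM in WT_Half. The pancreatic gene Ctrb1 was at 477, 1.03, 404 and 51.96 CPM in WT_Con and at 8.76, 3.42, 0.432, 3.55, 1.46, 1.14 and 1.23 CPM in WT_Half, so it was high in the same 3 control libraries. The stomach gene Gkn1 reached 5740 CPM in WT_Con replicate 3 and was between 0 and 14.2 CPM in the other 10 libraries. The log2 fold changes were also taken within the Brunner gland rich libraries (3 against 2) and the poor ones (1 against 5), a division made after the data were seen, in which the lone poor control is assumed to vary like the other libraries. Of 67 genes followed singly that had a value in both sets, 29 differed by over 1 on the log2 scale. Of these, 23 had the same sign in both. The other 6 were the pancreatic genes Cpb1, Cel, Prss2 and Ctrb1 and the stomach genes Cldn18 and Gkn1, all negative in the rich and positive in the poor libraries. Values for some of the 29 stand beside their results. Among the rest were Aldh3b2 (-4.89 in rich and -0.97 in poor libraries), Ereg (2.32 and 3.56), Saa3 (3.09 and 4.34), S100a9 (3.47 and 4.65), H2-DMb1 (-1.28 and -2.36) and Akr1b7 (2.68 and 1.58). A fit without the controls above 10 CPM of Ctrb1 left only WT_Con replicate 2. Such a fit cannot show the part of pancreatic and stomach RNA in the other results, which was not tested.

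**Figure D1:**
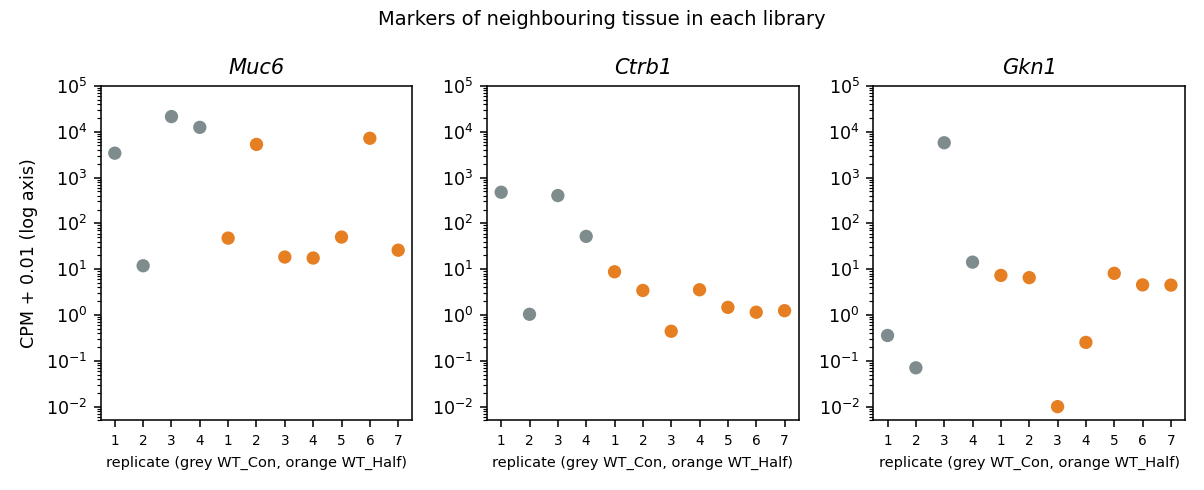
Level of 3 markers of neighbouring tissue in each library, as CPM + 0.01 on a log axis, with grey points for WT_Con replicates 1 to 4 and orange points for WT_Half replicates 1 to 7. Muc6 (Brunner gland) is high in 3 of 4 control and 2 of 7 ethanol libraries, Ctrb1 (pancreas) in 3 control libraries, and Gkn1 (stomach) in 1 control library.

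Of 16993 genes tested, 152 were higher in WT_Half (0.894%) and 97 were lower (0.571%), together 1.47%, by edgeR's quasi-likelihood test at an adjusted p under 0.05. These 249 genes are described as called. The genes that rose included the surface protein genes Ly6g, Gml and Gml2, the growth factor gene Ereg, the protease gene Mmp3, neutrophil genes, and Atf5 with enzymes of serine synthesis. Among those that fell were the clock output gene Dbp, MHC class II genes, the calcium carrier gene S100g and pancreatic enzymes, the last being high in 3 control libraries. In 142 of the 152 higher genes and 69 of the 97 lower genes the 2 groups did not overlap in CPM. Over all genes tested, 3.1% were higher and 2.17% were lower without overlap. Of these 16993 genes, 8483 had a positive log2 fold change. Changes exceeded 2-fold for 88 higher and 61 lower genes, and 236 of the 249 genes are protein coding.

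**Figure D2:**
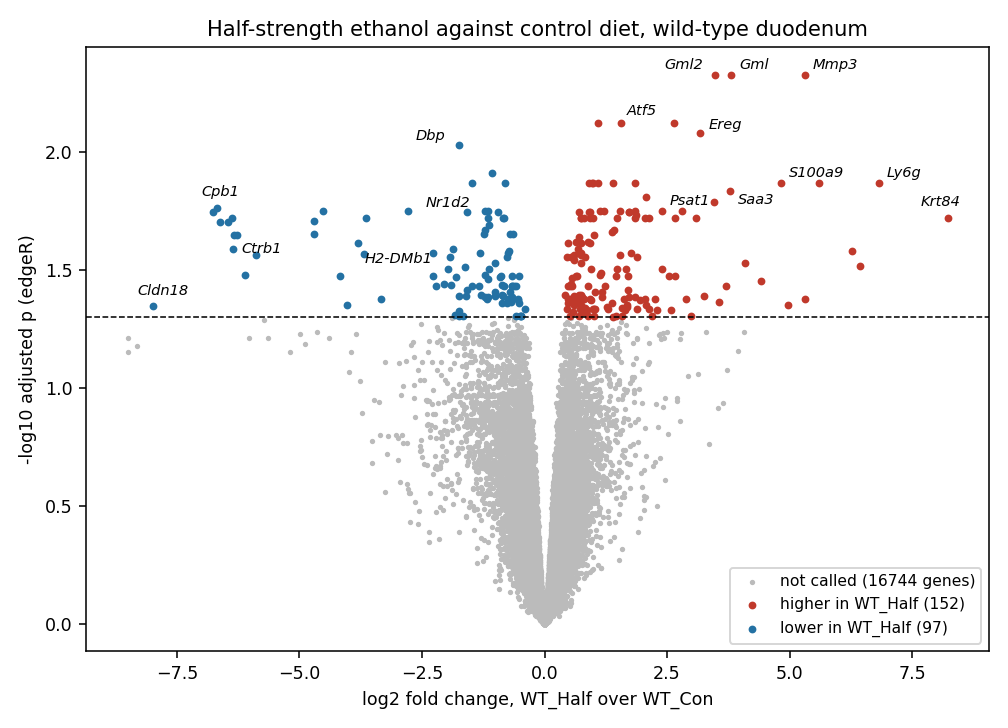
Log2 fold change of WT_Half over WT_Con (x axis) against -log10 of the adjusted p (y axis) for the 16993 genes tested. Red points are the 152 genes called higher, blue points the 97 called lower, grey points the rest, and the dashed line is the threshold of 0.05. Gml, Gml2 and Mmp3 have the smallest adjusted p, and the group at the far left is mostly pancreatic.

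The number of calls depended on single libraries and on the tool. The total was 21 without WT_Con replicate 1, 59 without WT_Con replicate 4, 122 without WT_Half replicate 3, 60 without WT_Half replicate 4, 57 without WT_Half replicate 5 and 72 without WT_Half replicate 7. It was 375 without WT_Half replicate 1 and 446 without WT_Half replicate 6. Of the calls, 61% were higher, against 51.1% of 1353 calls by DESeq2, 48.3% of 1232 by limma-voom and 36.4% of 324 without WT_Con replicate 2. With the Brunner gland level as a covariate 7 genes were called: Fst, Cxcr2, Atf5, Mmp3, Gml and Gml2 higher and Dbp lower (Fst, for follistatin, is named after its value was seen). All 249 calls had the same sign with the covariate, under DESeq2 and under limma-voom, and 233 of 249 had it in the Brunner gland poor libraries. Of 68 genes followed singly, 50 were called, and 7 of those were called in all 11 fits that left out 1 library: Gml, Gml2, Ereg, Mmp3, Saa3, Atf5 and Dbp. Calls lost among the 68 were 43, 13, 21 and 32 without WT_Con replicates 1 to 4 and 2, 3, 21, 32, 32, 2 and 31 without WT_Half replicates 1 to 7, with no change of sign.

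Among the genes that rose, 4 lie in a cluster of Ly6 family genes on chromosome 15 (GRCm38), where Gml and Gml2 are neighbours of Ly6a and Ly6g. These genes encode small proteins tethered to the cell surface by a lipid anchor. Ly6a (Sca-1) is known as a mark of regenerating intestinal epithelium, and Ly6g as a neutrophil antigen. Gml (15:74813452-74818815, minus strand) was at 2.75, 1.69, 3.32 and 2.41 CPM in the 4 WT_Con libraries and at 15.98 to 55.2 CPM (median 30.8) in WT_Half. Every WT_Half library was above every control, and the log2 fold change was 3.81 ± 0.42 (adjusted p = 0.00469). It was 2.61 in the Brunner gland rich and 4.66 in the poor libraries. Gml2 (15:74819071-74834871, plus strand) was at 1.67, 0.664, 1.67 and 1.32 CPM in WT_Con and at 7.09 to 20.4 CPM (median 15.04) in WT_Half, again with no overlap (3.48 ± 0.37, adjusted p = 0.00469, 2.58 in rich and 4.66 in poor libraries). Ly6g had 0.0695, 0.181, 0.0452 and 0.911 CPM in WT_Con and 5.90 to 63.1 CPM (median 42.8) in WT_Half, the widest separation of the 4 on the log2 scale (6.83 ± 1.01, adjusted p = 0.0135). Its 2 lowest ethanol libraries, replicates 6 and 2, were the 2 rich in Brunner gland RNA, and its log2 fold change was 4.39 in the rich and 7.91 in the poor libraries. Ly6a had 23.8, 19.5, 14.2 and 19.1 CPM in WT_Con and 25.9 to 109.9 CPM (median 66.4) in WT_Half (1.68 ± 0.37, adjusted p = 0.0454), and it passed the threshold in 4 of 11 fits that each left out 1 library.

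In the stretch of chromosome 15 from Gml to Ly6g (74813452 to 75159126), chosen after its values were seen, 8 genes were tested, 4 were higher and 0 lower. The 4 others were Ly6m (0.61), Ly6e (0.39), Ly6c1 (1.08, adjusted p = 0.059) and Ly6c2 (-1.46, adjusted p = 0.0644), given as log2 fold changes. In KI_Half against KI_Con, where 20% of genes tested were higher, 17.9% lower and 37.9% either, 6 of the 8 were higher. Members of this family are similar in sequence, and the treatment of reads shared between copies is not given here.

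Epithelial injury and repair genes were represented by 3 members called higher of 22 tested and 0 lower, with a median log2 fold change of 0.56 against -0.00 over all genes. Of the 22, 15 had positive and 7 negative values, the lowest being -3.94. The gene lists in this report were chosen with earlier results of these data known, so their counts and medians are descriptions only. Ereg, which encodes the EGF receptor ligand epiregulin, was at 1.32, 1.99, 3.12 and 2.50 CPM in WT_Con and at 11.2 to 39.9 CPM (median 16.2) in WT_Half. The groups were fully separate (3.18 ± 0.41, adjusted p = 0.00832), and the call held in 11 of 11 fits leaving out 1 library. Anxa2, an abundant gene for a calcium-dependent membrane-binding protein, was at 810.3, 828, 968 and 779 CPM in WT_Con and at 1059 to 1983 CPM (median 1488) in WT_Half (0.83 ± 0.16, adjusted p = 0.0279). Its difference was smaller, and it passed in 5 of 11 such fits. The third member is Ly6a. Members that missed the threshold included Krt18 (1.57, adjusted p = 0.0777) and Clu (-2.43, adjusted p = 0.112).

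The matrix protease stromelysin-1, encoded by Mmp3, was at 0.139, 0.0604, 0.362 and 0.353 CPM in WT_Con and at 2.48 to 16.1 CPM (median 8.40) in WT_Half. No library of either group entered the other's range, and the log2 fold change was 5.31 ± 0.60 (adjusted p = 0.00469). It was 4.20 in the Brunner gland rich and 7.42 in the poor libraries, where the lone control held 2 counts. Mmp3 was the only called member among 26 tested fibroblast and matrix genes, whose median was -0.01. Adamts4, a gene for a protease of proteoglycans, was at 0.487, 0.906, 0.746 and 2.29 CPM in WT_Con and at 3.05 to 18.2 CPM (median 5.98) in WT_Half (2.89 ± 0.62, adjusted p = 0.0421, called in 3 of 11 fits leaving out 1 library), with 1.67 in rich and 3.45 in poor libraries. Also among the 12 largest rises were H19, an imprinted non-coding RNA, at 0.938, 0.543, 0.949 and 0.558 CPM in WT_Con and 2.53 to 11.5 CPM (median 4.28) in WT_Half (3.10 ± 0.53, adjusted p = 0.0189), and the hair keratin gene Krt84. Krt84 had 1 count in the 4 controls together and 837 in the 7 ethanol libraries (19 to 483 each), a ratio of 475 with a 95% counting interval of 85.1 to 18791 and an adjusted p of 0.0189. WT_Half replicate 1 held 483 of the 837 counts (11.99 CPM, against 0.631 to 2.80 CPM in the other 6), and without it the ratio was 240.2 (42.8 to 9513). Krt84 passed in 9 of 11 fits that left out 1 library, and not without WT_Con replicate 1 (adjusted p = 0.0657) or 4 (0.0663).

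Neutrophil-recruiting chemokines and neutrophil products rose together from very low levels. Cxcl1 and Cxcl2 encode chemokines that bind the receptor encoded by Cxcr2, and S100a8 and S100a9 encode the subunits of calprotectin, the main cytosolic protein of neutrophils. Cxcl1 was at 0.591, 0.815, 0.588 and 0.5 CPM in WT_Con and at 1.32 to 6.76 CPM (median 1.82) in WT_Half (2.18 ± 0.49, adjusted p = 0.0497). Cxcl2 was at 0.209, 0.0604, 0.0904 and 0 CPM in WT_Con and at 0.496 to 10.2 CPM (median 1.33) in WT_Half (5.32 ± 1.15, adjusted p = 0.042), with 3.21 in the rich libraries and 6.19 in the poor ones, where the lone control held 2 counts. In both, WT_Half replicate 7 was the highest library, and each passed in 3 of 11 fits that left out 1 library.

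The promoters of these 2 neighbouring genes are shown because both moved the same way. They come from RefSeq (GRCm38.p6), 250 bases before to 50 after the annotated start, and capitals mark matches on either strand to the kB element, searched as GGG, any 2 bases and TTTCC. Each holds 2, starting 89 and 71 bases before the start in Cxcl1 (chr5:90890995-90891294, plus strand) and 97 and 78 bases before it in Cxcl2 (chr5:90903649-90903948, plus strand).
Cxcl1: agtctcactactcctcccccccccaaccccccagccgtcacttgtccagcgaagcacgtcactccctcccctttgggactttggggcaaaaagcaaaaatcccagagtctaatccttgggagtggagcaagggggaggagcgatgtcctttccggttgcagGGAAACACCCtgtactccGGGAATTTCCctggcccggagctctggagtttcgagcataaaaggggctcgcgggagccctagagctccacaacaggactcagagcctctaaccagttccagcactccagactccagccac
Cxcl2: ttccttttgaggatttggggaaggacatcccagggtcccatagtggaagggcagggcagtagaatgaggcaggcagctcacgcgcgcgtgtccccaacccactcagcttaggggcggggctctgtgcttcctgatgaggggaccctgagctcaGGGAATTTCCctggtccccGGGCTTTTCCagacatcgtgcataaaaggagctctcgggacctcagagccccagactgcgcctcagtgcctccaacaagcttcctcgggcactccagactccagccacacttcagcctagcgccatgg
Of 32851 RefSeq promoters of this length 1.63% hold a match. Those of Saa3, S100a8, S100a9 and Il18 hold none of these letters. The kB, AP-1 and Y box motifs were chosen after the values were seen, and a match is a description of letters, not a bound site. RefSeq promoters were found for 195 of the 249 called genes.

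S100a9 was at 0.0695, 0.211, 0.181 and 0.118 CPM in WT_Con and at 1.42 to 8.83 CPM (median 3.76) in WT_Half (4.83 ± 0.69, adjusted p = 0.0135). S100a8 was at 0, 0, 0.226 and 0.118 CPM in WT_Con, 2 of them at 0, and at 0.456 to 4.36 CPM (median 1.64) in WT_Half, with an adjusted p of 0.035. Its log2 fold change was 2.45 in the Brunner gland rich libraries, and in the poor ones the lone control held 0 counts. Cxcr2 had 2 counts in the 4 controls together and 334 in the 7 ethanol libraries (6 to 112 each), a ratio of 94.8 with a 95% counting interval of 26.0 to 786. Its adjusted p was 0.0262. The integrin gene Itgam, carried by neutrophils and macrophages, was at 2.64, 3.68, 1.76 and 2.32 CPM in WT_Con and 4.39 to 6.97 CPM (median 5.32) in WT_Half (1.03 ± 0.23, adjusted p = 0.0461). All 4 genes were higher in every ethanol library than in any control, as were 3.1% of all genes tested. With 1 library left out, S100a9 passed in 10 of 11 fits, S100a8 and Cxcr2 in 5 each and Itgam in 4.

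Over the list of neutrophil, mast cell and eosinophil markers, 4 of 11 tested were higher (S100a8, S100a9, Ly6g and Cxcr2) and 0 lower, with a median of 0.22. The list summed to 32.3 to 37.5 CPM in WT_Con and to 34.01 to 102 CPM in WT_Half, with 1 to 2 members at 0 in each control library and none at 0 in the ethanol libraries. Its mast cell members Mcpt1 (-0.13), Mcpt2 (0.01) and Mcpt4 (0.22) and the eosinophil gene Prg2 (-0.73) were not called. The neutrophil gene Csf3r, also on the list, was not called either. In WT_Half the median of Ly6g was 42.8 CPM, against 3.76 for S100a9, 1.64 for S100a8 and 1.17 for Cxcr2. Which cells the Ly6g RNA came from was not tested. In bulk tissue, more cells of a type and more RNA per cell cannot be told apart, and this holds for every cell type marker here.

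Among acute-phase genes Saa3, for a serum amyloid A protein, was at 2.95, 0.906, 0.384 and 0.588 CPM in WT_Con and at 9.23 to 25.9 CPM (median 18.4) in WT_Half (3.78 ± 0.57, adjusted p = 0.0145). Its call held in 11 of 11 fits leaving out 1 library. Lcn2, for the iron-siderophore binding protein lipocalin-2, was at 6.88, 9.30, 2.46 and 3.91 CPM in WT_Con and 9.54 to 63.2 CPM (median 23.4) in WT_Half, without overlap but at an adjusted p of 0.059 (3.05 in rich and 1.44 in poor libraries). The antimicrobial list had 3 higher and 0 lower of 20 tested (median 0.47), the 3 being Saa3, S100a8 and S100a9, while the bactericidal lectin genes Reg3b (1.94, adjusted p = 0.357) and Reg3g (1.41, adjusted p = 0.426) were not called.

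Among 24 tested cytokines and chemokines, 3 were higher (Cxcl1, Cxcl2 and Il18) and 0 lower, with a median of 0.35. Il18, an epithelial cytokine of the interleukin-1 family, was at 71.98, 113, 78.7 and 93.96 CPM in WT_Con and 143 to 226 CPM (median 155) in WT_Half (0.92 ± 0.16, adjusted p = 0.0189). In Aldh2KI mice its log2 fold change was 0.14 ± 0.16 (adjusted p = 0.497), with KI_Con at 129.7, 154, 114 and 116 CPM, and the difference between genotypes was not past the threshold (interaction adjusted p = 0.332). Cxcl9, for an interferon-induced chemokine of T cells, had a log2 fold change of -1.88 (adjusted p = 0.0505). None of 34 interferon-stimulated genes was called.

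**Figure D3:**
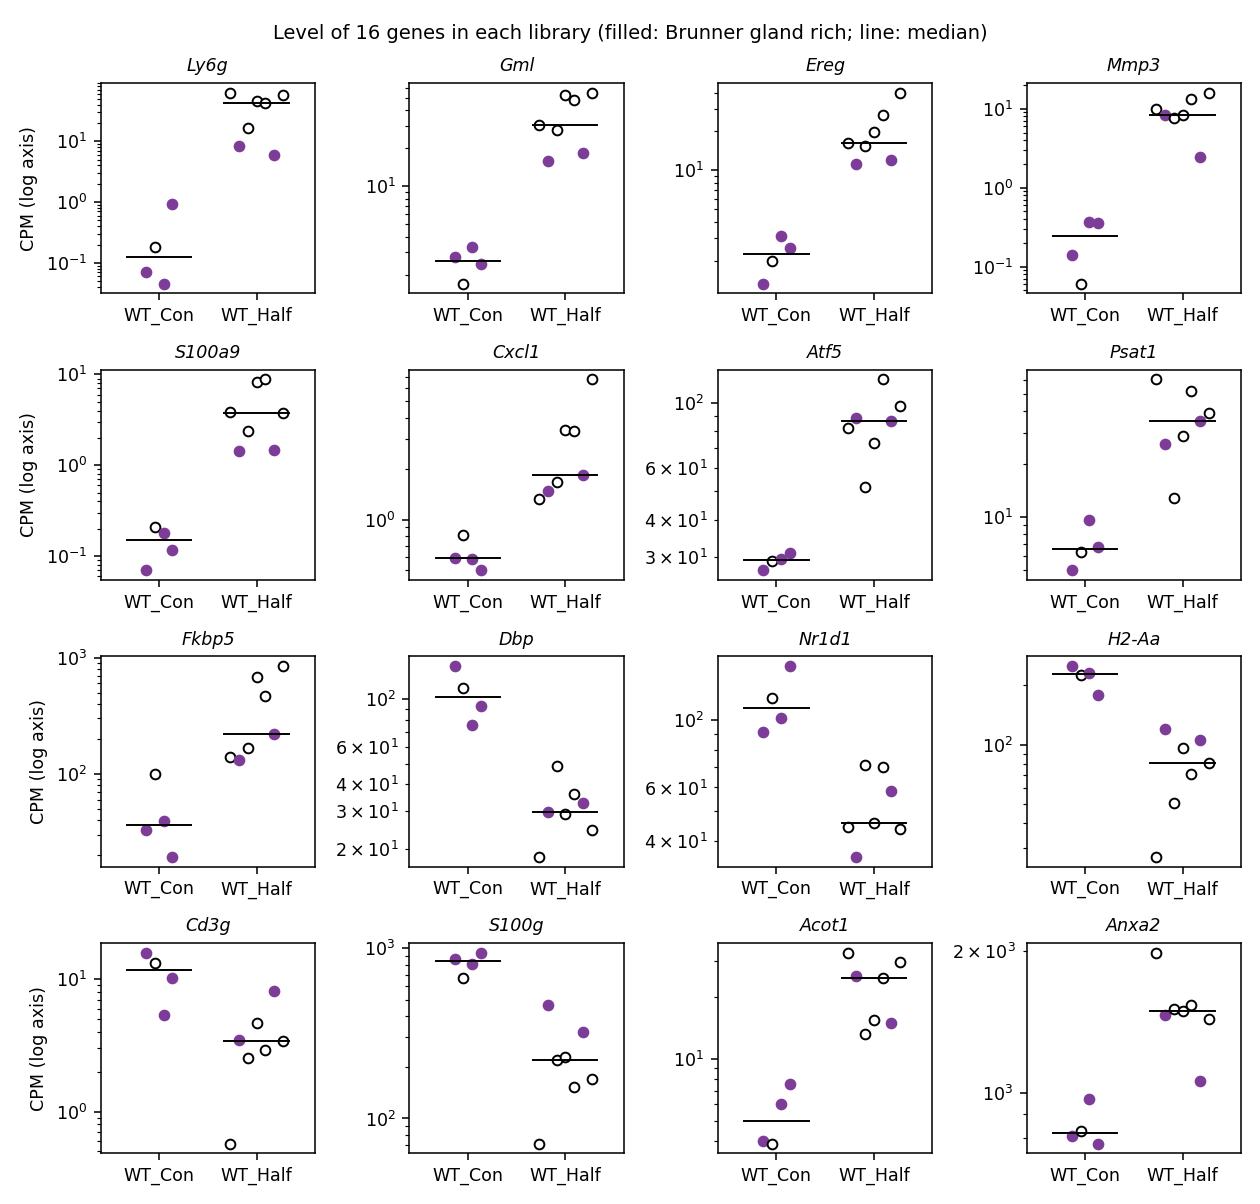
CPM of 16 genes in each library on log axes, WT_Con at the left of each panel and WT_Half at the right, with filled points for Brunner gland rich libraries, open points for poor ones and a line at the group median. The groups do not overlap in any panel except Cd3g, and for Ly6g and Gml the 2 filled WT_Half points are the lowest of their group.

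Of 24 tested integrated stress response genes 4 rose (Atf5, Psat1, Phgdh and Shmt2) and 0 fell, with a median of 0.44. This response slows general translation while raising transcription factors such as ATF4 and ATF5, which drive amino acid synthesis genes. Atf5 was at 26.9, 28.9, 29.5 and 30.8 CPM in WT_Con, a narrow range, and at 51.8 to 120.3 CPM (median 86.4) in WT_Half. The log2 fold change was 1.57 ± 0.19 (adjusted p = 0.00753), nearly the same in the Brunner gland rich (1.59) and poor (1.54) libraries, and the call held in 11 of 11 fits leaving out 1 library. Phgdh and Psat1 encode the first 2 enzymes of serine synthesis, and Shmt2 the mitochondrial enzyme that turns serine into glycine and one-carbon units. Psat1 was at 4.97, 6.31, 9.61 and 6.76 CPM in WT_Con and 12.8 to 60.4 CPM (median 35.01) in WT_Half (2.40 ± 0.38, adjusted p = 0.0178). Phgdh was at 9.31, 12.05, 22.6 and 16.1 CPM in WT_Con and 23.2 to 95.04 CPM (median 40.3) in WT_Half, where the lowest ethanol library was close to the highest control (1.67 ± 0.36, adjusted p = 0.0443). Shmt2 was at 23.8, 32.2, 32.5 and 28.9 CPM in WT_Con and 42.8 to 137 CPM (median 62.02) in WT_Half (1.27 ± 0.28, adjusted p = 0.0454). WT_Half replicate 1 was the highest library for all 3 enzymes. Psat1 passed in 9, Phgdh in 5 and Shmt2 in 4 of 11 fits leaving out 1 library.

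Psph, for the last enzyme of serine synthesis, missed the threshold (1.05, adjusted p = 0.059), as did Asns, for asparagine synthetase, at 14.9, 15.6, 63.7 and 28.7 CPM in WT_Con and 39.3 to 117 CPM (median 76.6) in WT_Half (adjusted p = 0.098, 0.97 in rich and 2.33 in poor libraries). WT_Con replicate 3 was the high control for Asns. Atf4 itself had a log2 fold change of 0.21 (adjusted p = 0.307). In Aldh2KI mice, where 20% of genes tested were higher, 16 of the 24 were higher and 0 lower, with a median of 1.77. The ATF4 element TGATGNAAN, searched on both strands and held by 3.95% of promoters, was not in the 300-base windows of Psat1, Phgdh, Shmt2 or Atf5. It was in those of 8 of the 21 list members with a promoter, namely Atf3, Trib3, Chac1, Asns, Vldlr, Nupr1, Slc7a11 and Pck2, none of them called. None of 23 endoplasmic reticulum chaperones and none of 18 cytosolic heat shock genes was called, and Atf5 was the only member called among 16 mitochondrial stress genes.

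Of 21 circadian clock genes tested, 3 fell and 0 rose (median -0.20). Dbp encodes a transcription factor at the output of the clock, and Nr1d1 and Nr1d2 encode the REV-ERB repressors. Dbp was at 142, 112, 75.6 and 92.2 CPM in WT_Con and at 18.4 to 48.6 CPM (median 29.6) in WT_Half, with no overlap (-1.75 ± 0.23, adjusted p = 0.00936). Its log2 fold change was -1.73 in Brunner gland rich and -1.85 in poor libraries, and it passed in 11 of 11 fits leaving out 1 library. Nr1d1 was at 91.4, 119, 102 and 151 CPM in WT_Con and 35.4 to 71.02 CPM (median 45.8) in WT_Half (-1.13 ± 0.20, adjusted p = 0.0202). Nr1d2 was at 89.5, 92.9, 79.9 and 67.3 CPM in WT_Con and 26.7 to 50.3 CPM (median 34.7) in WT_Half (-1.16 ± 0.18, adjusted p = 0.0178). Arntl (0.80, adjusted p = 0.0621) and Npas2 (0.98, adjusted p = 0.0703), the activators in antiphase to Dbp, had positive values that missed the threshold. The hour of tissue collection in each group is not stated in the labels, so diet and clock time cannot be told apart.

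Of 12 tested MHC class II genes, which present antigen to helper T cells, 4 fell and 0 rose. All 12 had a negative log2 fold change (median -1.12), where 8483 of 16993 genes tested were positive. In 6 the groups did not overlap, and 2.17% of all genes tested were lower without overlap. H2-Aa was at 251, 225, 231 and 179 CPM in WT_Con and at 26.9 to 119.7 CPM (median 80.3) in WT_Half (-1.49 ± 0.30, adjusted p = 0.0368). H2-Ab1, its partner chain, was at 599.6, 474, 398 and 388 CPM in WT_Con and 48.8 to 218 CPM (median 165) in WT_Half (-1.58 ± 0.33, adjusted p = 0.0385). H2-Eb1 was at 264, 247, 206 and 239 CPM in WT_Con and 38.6 to 151 CPM (median 94.1) in WT_Half, and H2-DMb1, for a chain of the peptide editor H2-DM, was at 51.5, 49.9, 53.5 and 36.6 CPM and 4.34 to 23.4 CPM (median 12.96). Their log2 fold changes were -1.33 ± 0.27 and -1.93 ± 0.37, with adjusted p of 0.0368 and 0.0279. WT_Half replicate 1 was the lowest library for all 4 genes. The log2 fold change of H2-Aa was -0.96 in Brunner gland rich and -1.80 in poor libraries, and it passed in 3 of 11 fits leaving out 1 library. H2-Ab1 and H2-Eb1 also passed in 3 such fits each, and H2-DMb1 in 5. The invariant chain gene Cd74 (-1.45, adjusted p = 0.059) and the class II activator gene Ciita (-1.08, adjusted p = 0.139) were not called.

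The promoters of H2-Aa (chr17:34287774-34288073, minus strand) and H2-Eb1 (chr17:34305617-34305916, plus strand) are shown because the class II genes moved together. Capitals mark the Y box CTGATTGG, searched on both strands and held by 4.1% of promoters, which begins 51 bases before the start in H2-Aa and 62 before it in H2-Eb1.
H2-Aa: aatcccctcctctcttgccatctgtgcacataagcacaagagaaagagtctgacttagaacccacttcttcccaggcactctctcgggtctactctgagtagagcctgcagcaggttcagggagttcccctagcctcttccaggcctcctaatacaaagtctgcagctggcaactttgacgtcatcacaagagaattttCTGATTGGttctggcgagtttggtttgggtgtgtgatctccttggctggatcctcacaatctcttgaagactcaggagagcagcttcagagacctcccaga
H2-Eb1: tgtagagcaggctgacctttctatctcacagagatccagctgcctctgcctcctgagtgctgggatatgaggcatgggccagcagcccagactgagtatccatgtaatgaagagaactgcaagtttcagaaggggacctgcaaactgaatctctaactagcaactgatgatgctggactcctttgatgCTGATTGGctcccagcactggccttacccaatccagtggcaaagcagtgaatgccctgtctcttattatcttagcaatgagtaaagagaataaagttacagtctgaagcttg
The window of H2-DMb1 does not hold these letters. Of the 9 class II list members with a promoter, 4 hold them: H2-Aa, H2-Eb1, H2-Eb2 and H2-Oa. For Mmp3 (chr9:7445572-7445871, plus strand), capitals mark the AP-1 element TGAGTCA, held by 5.2% of promoters, 46 bases before the start.
Mmp3: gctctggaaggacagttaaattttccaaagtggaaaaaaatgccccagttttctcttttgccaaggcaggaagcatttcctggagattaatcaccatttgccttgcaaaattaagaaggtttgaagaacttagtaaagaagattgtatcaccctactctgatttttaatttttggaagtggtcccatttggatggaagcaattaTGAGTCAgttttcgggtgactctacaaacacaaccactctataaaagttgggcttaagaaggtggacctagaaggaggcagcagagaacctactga

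T and NK cell markers had negative log2 fold changes in 26 of 26 tested genes (median -1.13), but 0 passed the threshold. Their summed level was 167 to 389 CPM in WT_Con and 33.4 to 243 CPM in WT_Half. Cd3g, of the T cell receptor complex, was at 15.9, 13.2, 5.38 and 10.2 CPM in WT_Con and 0.571 to 8.12 CPM (median 3.40) in WT_Half (adjusted p = 0.101). Itgae, the integrin that holds T cells in the epithelium, was at 14.7, 25.1, 9.49 and 17.2 CPM and 3.73 to 12.4 CPM (median 5.71) (adjusted p = 0.059). Ranges overlapped for both. The log2 fold change in rich and poor libraries was -0.86 and -2.23 for Cd3g and -0.44 and -2.38 for Itgae. In Aldh2KI mice 20 of the 26 were lower, where 17.9% of genes tested were. Of 13 B and plasma cell markers 11 were negative and 0 were called, and Jchain, the joining chain of secreted IgA, was at 721, 973, 590.5 and 1181 CPM in WT_Con and 224 to 739 CPM (median 350.5) in WT_Half (adjusted p = 0.0998, -0.29 in rich and -1.65 in poor libraries). Of 22 macrophage and dendritic cell markers only Itgam was called, while Adgre1 (F4/80) had a log2 fold change of -1.13 ± 0.34 (adjusted p = 0.0982) and Cd163 one of 1.43 ± 0.34 (adjusted p = 0.059).

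**Figure D4:**
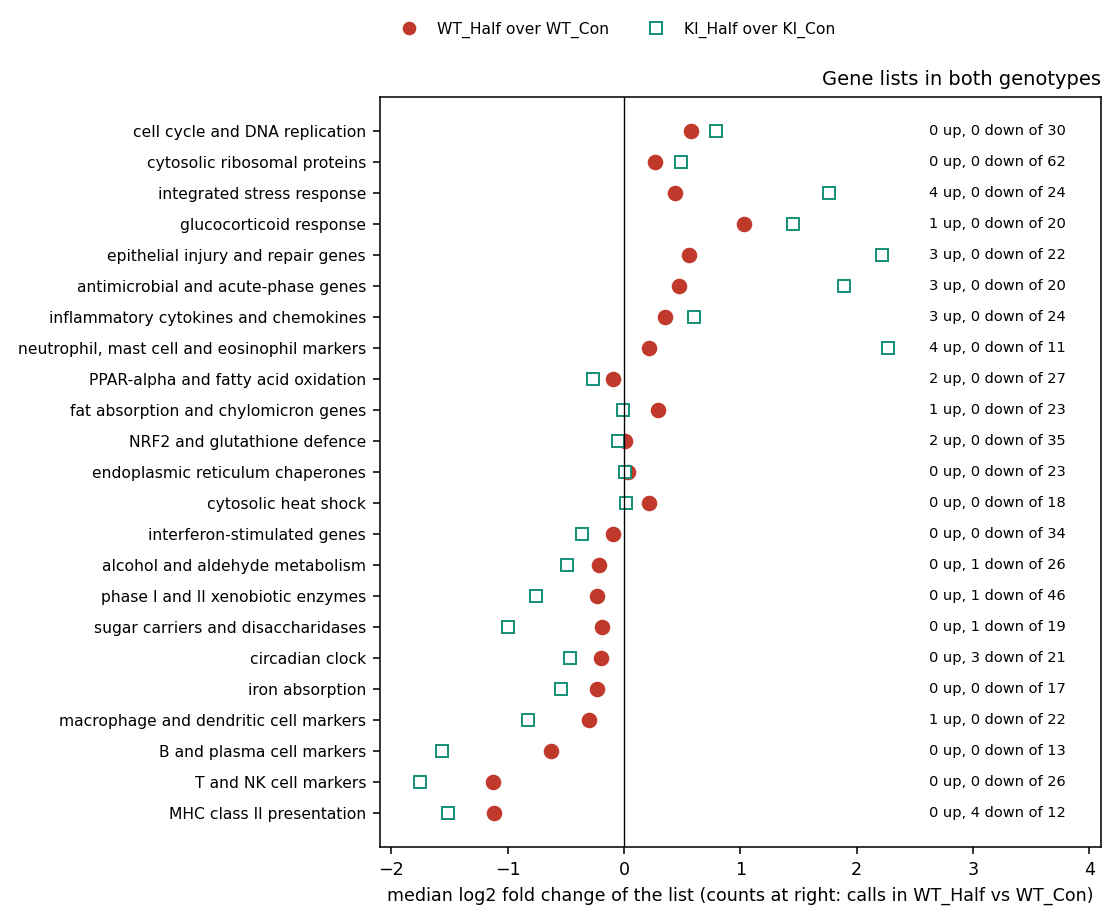
Median log2 fold change of 23 gene lists, red circles for WT_Half over WT_Con and open squares for KI_Half over KI_Con, with the number of members called in WT_Half against WT_Con at the right. Of the 23 lists shown, MHC class II and T and NK cell lists have the lowest medians (-1.12 and -1.13) and the glucocorticoid list the highest (1.04). Lists not drawn include pancreatic acinar (-5.21), stomach (-2.76), Brunner gland (-2.47) and Paneth cell genes (1.35).

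Fkbp5, a classical target of the glucocorticoid receptor, was at 33.2, 101, 39.5 and 19.3 CPM in WT_Con and at 132 to 847 CPM (median 221) in WT_Half (2.99 ± 0.67, adjusted p = 0.0497). It was the 1 called gene of 20 tested glucocorticoid response genes, of which 16 had positive values (median 1.04), and it passed in 4 of 11 fits leaving out 1 library. In WT_Full it was at 66.01, 55.9, 101 and 74.6 CPM, below every WT_Half library, although the comparison of WT_Full with WT_Half called 0 genes. Hif3a (2.77, adjusted p = 0.062), Mt2 (1.84, adjusted p = 0.14) and Dusp1 (1.37, adjusted p = 0.144) were not called.

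Calls in fat and sugar metabolism were few. Acot1, which encodes a cytosolic acyl-CoA thioesterase induced by PPAR-alpha, was at 4.00, 3.86, 6.01 and 7.58 CPM in WT_Con and 13.3 to 32.9 CPM (median 24.7) in WT_Half (2.06 ± 0.31, adjusted p = 0.0155). The 27 tested PPAR-alpha and fatty acid oxidation genes had 0 members called lower and a median of -0.10. Angptl4, another PPAR target, was at 6.95, 19.5, 3.98 and 5.73 CPM in WT_Con and 15.7 to 89.9 CPM (median 32.98) in WT_Half (adjusted p = 0.0646). Agpat2, for an acyltransferase on the path to triglyceride, was at 182, 204, 181 and 197 CPM in WT_Con and 257 to 399.6 CPM (median 311) in WT_Half (0.74 ± 0.13, adjusted p = 0.0189), the 1 called of 23 fat absorption genes, 21 of them positive. Transketolase (Tkt) was at 304, 399, 408 and 312 CPM and 463 to 631 CPM (median 577) (0.70 ± 0.13, adjusted p = 0.0229), and phosphoglycerate kinase (Pgk1) at 402, 471, 366 and 345 CPM and 512 to 626 CPM (median 606) (0.59 ± 0.11, adjusted p = 0.0285). Tkt and the aldo-keto reductase gene Akr1b7, at 6.95, 14.2, 3.89 and 10.5 CPM and 6.63 to 58.9 CPM (median 49.8) with overlap, were the 2 called of 35 NRF2 and glutathione genes (median 0.00). The NRF2 target Nqo1 was at 34.8, 52.8, 160.2 and 39.9 CPM in WT_Con and 23.7 to 40.5 CPM (median 26.6) in WT_Half (adjusted p = 0.0763), with WT_Con replicate 3 far above the rest.

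Few genes of the absorptive surface fell. S100g, the calcium-binding protein calbindin-D9k of enterocytes, was at 862, 670.0, 811 and 943 CPM in WT_Con and 71.1 to 464 CPM (median 219) in WT_Half, a full separation (-1.81 ± 0.36, adjusted p = 0.0338). It was the 1 called of 9 calcium and vitamin D genes, and within Brunner gland rich and poor libraries its log2 fold changes were -1.15 and -1.999. S100g passed in 4 of 11 fits leaving out 1 library. Slc5a4a, of the sodium-glucose carrier family, was at 25.1, 33.7, 8.45 and 14.9 CPM and 1.09 to 8.47 CPM (median 4.25), overlapping by a narrow margin (-2.28 ± 0.45, adjusted p = 0.0334, -1.59 in rich and -3.18 in poor libraries), and it was the 1 called of 19 sugar genes. Slc40a1, for the iron exporter ferroportin, was at 1588, 1230, 873 and 1274 CPM in WT_Con and 222 to 827 CPM (median 588) in WT_Half, with no overlap but an adjusted p of 0.0728. None of 17 iron absorption genes was called. Cyp2s1 was the 1 called of 46 xenobiotic enzymes, at 131, 101, 296 and 107 CPM and 50.3 to 82.01 CPM (median 70.2) (-1.22 ± 0.26, adjusted p = 0.0411), and 32 of the 46 were negative (median -0.23). Without WT_Con replicate 3, its high control, its log2 fold change was -0.74 (adjusted p = 0.0471).

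Of 30 cell cycle genes 29 had positive log2 fold changes (median 0.58) and of 62 cytosolic ribosomal protein genes 61 were positive (median 0.26), with 0 called in each. Rrm2, for a subunit of ribonucleotide reductase, was at 26.9, 49.1, 37.7 and 20.9 CPM in WT_Con and 63.1 to 408 CPM (median 122) in WT_Half (adjusted p = 0.0597). In Aldh2KI mice 26 of the 30 and 55 of the 62 were called higher, where 20% of genes tested were. Paneth cell genes were positive in 15 of 16 (median 1.35) with 0 called. Their defensins are near-identical copies whose counts may be shared. Among 18 crypt stem cell genes Ly6a was higher and Rnf43, a brake on Wnt receptors, was lower, at 97.3, 96.6, 98.7 and 96.3 CPM in WT_Con and 44.4 to 76.2 CPM (median 63.7) in WT_Half (-0.65 ± 0.13, adjusted p = 0.0368). Rnf43 passed in 3 of 11 fits leaving out 1 library. The glial gene Gfap was at 2.26, 1.09, 1.65 and 2.65 CPM and 2.59 to 16.7 CPM (median 10.01), overlapping at the edge (2.26 ± 0.48, adjusted p = 0.042, 0.89 in rich and 3.35 in poor libraries), the 1 called of 16 neuronal and glial markers.

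Of the ethanol-oxidising enzymes, Aldh2 was at 491, 467, 456 and 502 CPM in WT_Con and 293 to 508 CPM (median 467) in WT_Half, overlapping (-0.12 ± 0.14, adjusted p = 0.661). Of 26 alcohol and aldehyde genes 20 were negative (median -0.22) and 1 was called, Aldh3b2, at 1.15, 0.574, 15.6 and 0.235 CPM in WT_Con and 0.171 to 0.397 CPM (median 0.224) in WT_Half. The stomach-rich WT_Con replicate 3 was its high library, and without it the log2 fold change was -1.29 (adjusted p = 0.163). Acss1, for mitochondrial acetyl-CoA synthetase, was at 173, 153, 212 and 202 CPM and 69.6 to 179 CPM (median 109) (adjusted p = 0.0847), and its cytosolic counterpart Acss2 at 28.6, 37.5, 43.3 and 37.7 CPM and 21.2 to 31.1 CPM (median 27.5) (adjusted p = 0.0998).

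Pancreatic acinar genes made up 11 of the 12 largest falls named, genes with clone names being left out, and they were high in 3 control libraries. The acinar gene 2210010C04Rik, left out for its clone name, had a log2 fold change of -6.77 (adjusted p = 0.0179). The carboxypeptidase gene Cpb1 was at 189, 0.634, 147 and 16.8 CPM in WT_Con and at 0.199 to 1.86 CPM (median 0.786) in WT_Half (-6.68 ± 1.03, adjusted p = 0.0172). WT_Con replicate 2 lay inside the WT_Half range. Against that control alone, in the Brunner gland poor libraries, the log2 fold changes of Cpb1, Cel, Prss2 and Ctrb1 were 0.58, 1.61, 2.18 and 1.56, which is the opposite direction. Of 22 acinar genes 16 were lower and 1 higher, and the list summed to 1174 to 4384 CPM in WT_Con and 967 to 1725 CPM in WT_Half. The list also holds Zg16, which is on the goblet cell list, and the sum did not follow Ctrb1. It was 1174 CPM in WT_Con replicate 4 (Ctrb1 at 51.96 CPM) and 1725 CPM in WT_Half replicate 3 (Ctrb1 at 0.432 CPM). The acinar gene called higher, Pnliprp2, which the intestine also expresses, was at 30.6, 13.3, 34.98 and 14.8 CPM and 25.04 to 124 CPM (median 91.4), with overlap (1.94 ± 0.42, adjusted p = 0.0425, 1.01 in rich and 2.95 in poor libraries). In Aldh2KI mice Ctrb1 was at 993, 317, 1.93 and 1.66 CPM in the 4 KI_Con libraries and at 1.55 to 3.49 CPM (median 2.58) in KI_Half. Cldn18, a claudin gene of stomach, was at 0.382, 0.0604, 439 and 1.41 CPM in WT_Con and 0 to 0.712 CPM (median 0.471) in WT_Half, and without WT_Con replicate 3 its log2 fold change was -0.57 (adjusted p = 0.741). Trypsinogen genes are near-identical copies, and their counts may be shared.

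The same regimen in Aldh2KI mice gives a comparison that shares no library with this one. There, 3388 of 16944 genes were higher (20%) and 3032 lower (17.9%). Of the 152 genes higher in wild type, 151 had the same sign in Aldh2KI mice and 139 were called higher, which is 91.4% of the wild-type list and 4.1% of the Aldh2KI list. Of the 97 lower, 96 were tested, 95 had the same sign and 87 were called lower (90.6% of those tested and 2.87% of the Aldh2KI list). None was called in the opposite direction. Among the lower genes were 16 of the pancreatic acinar list, of which 21 of 22 were lower in Aldh2KI mice. Ctrb1 was at 993, 317, 1.93 and 1.66 CPM in KI_Con, so control libraries of both genotypes held pancreatic RNA. Its part in the shared calls was not tested. Side by side as log2 fold changes, Atf5 was 1.57 ± 0.19 in wild type and 2.61 ± 0.28 in Aldh2KI, Psat1 was 2.40 ± 0.38 and 3.15 ± 0.24, and Dbp was -1.75 ± 0.23 and -2.86 ± 0.23. The difference between genotypes was past the threshold for 0 of 17006 genes by edgeR (2162 at an unadjusted p under 0.05), 36 by DESeq2 and 1138 by limma-voom. Among the genes with the smallest interaction p was Slc25a47, a mitochondrial carrier gene, at 26.00, 19.2, 22.3 and 23.9 CPM in WT_Con and 11.6 to 13.9 CPM (median 12.9) in WT_Half (-0.81 ± 0.11, adjusted p = 0.0135). In Aldh2KI mice it was at 11.5, 11.3, 13.5 and 14.8 CPM in controls and 10.7 to 17.1 CPM (median 13.03) in KI_Half (0.10 ± 0.16), with an interaction adjusted p of 0.327.

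**Figure D5:**
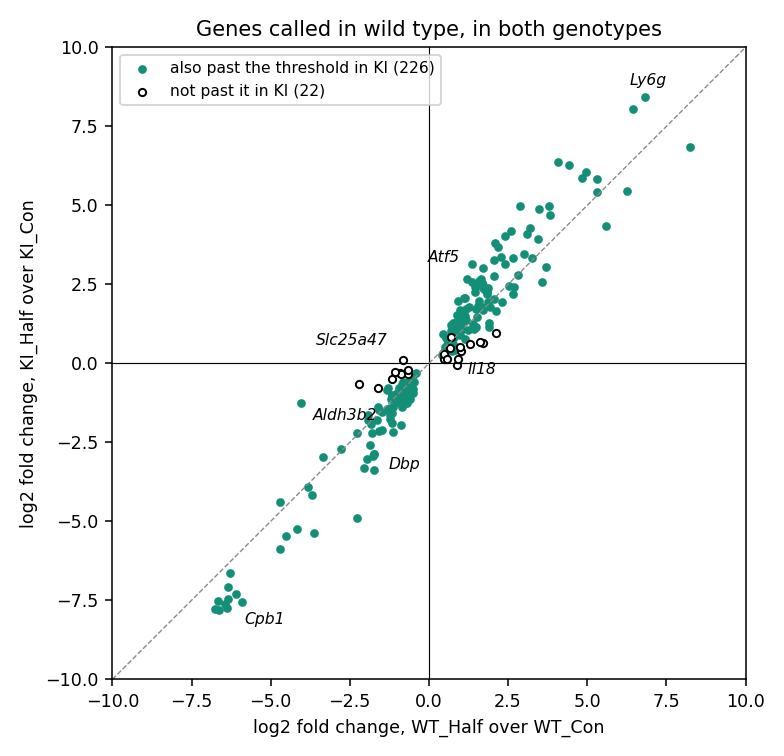
Log2 fold change of WT_Half over WT_Con (x axis) against that of KI_Half over KI_Con (y axis) for the called wild-type genes tested in both, filled where also past the threshold in Aldh2KI mice (226 genes) and open where not (22). The dashed line marks equal values, and nearly all points lie in the lower left and upper right quadrants.

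For the stronger regimen, WT_Full against WT_Half gave 0 of 16967 genes by edgeR (780 at an unadjusted p under 0.05), 17 by DESeq2 and 2 by limma-voom, and these share the WT_Half libraries with the main comparison. In the 4 WT_Full libraries Atf5 was at 88.1, 71.4, 83.99 and 78.4 CPM, Gml at 16.4, 34.7, 35.4 and 5.36 CPM and Mmp3 at 2.81, 4.98, 12.6 and 0.837 CPM. For Gml and Mmp3 WT_Full replicate 4 was below every WT_Half library, and for S100g it was at 847 CPM, within the WT_Con range.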

How the data were processed

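The authors deposited 2 tables of whole-number counts per gene for polyadenylated RNA of mouse duodenum. Per the submitters' processing notes, FastQC, Trimmomatic, HISAT2, SAMtools, featureCounts and DESeq2 were used with GRCm38; no versions, strand setting or handling of shared reads are stated there. The same deposited tables hold the authors' normalised signal columns, log2 fold changes, p-values and a test score, none of which was used. Both tables hold the same counts in 17220 lines; 213 repeated lines were merged, leaving 17007 gene identifiers. Genes were placed with GENCODE on GRCm38.

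From the counts, counts per 1000000 (CPM) was computed after TMM scaling over all 25 libraries. The comparison was fitted on its 11 libraries with edgeR 4.0.16 (quasi-likelihood F test, TMM, filterByExpr, two-sided, Benjamini-Hochberg adjustment over all genes tested, threshold 0.05), in R 4.3.3. Errors beside log2 fold changes are standard errors derived from that fit's F statistic. Each is the absolute log2 fold change without edgeR's prior count, divided by the square root of F. The printed log2 fold changes include that prior count. Alternatives were DESeq2 1.42.0, limma-voom (limma 3.58.1) with sample quality weights, RLE size factors, testing without the low-count filter, a replicate block, all 25 libraries in 1 fit, a Brunner gland covariate, controls at or under 10 CPM of Ctrb1, each library left out, and, chosen after seeing the data, Brunner gland rich or poor libraries. With 1 control left, that control is assumed to vary like the others. The fit was tested on simulated counts with 100 genes changed 2-fold and 100 changed 4-fold. edgeR called 49 and 93 of them with 8 false calls, limma-voom 50 and 91 with 8, and DESeq2 70 and 96 with 41. For the interaction, edgeR called 33 and 82 with 3 false calls, limma-voom 32 and 81 with 3, and DESeq2 41 and 88 with 21. The simulation held no differences in tissue make-up. No 2 libraries of a group agreed within sampling noise (smallest chi-square per degree of freedom 30.8). Counting intervals cover counting error only.

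Members and the 55 gene lists were chosen with earlier results of these data known. Genes named by rule were the 12 largest rises and falls among called genes of at least 1 average log2 CPM, called members and the 3 smallest p of each list, up to 5 genes of smallest p in each other comparison, and Aldh2. Genes given outside this rule were chosen after their values were seen. They include Krt18, Cxcl9, Cd74, Ciita, Psph, Atf4, Arntl, Npas2, Reg3b, Reg3g, Prg2 and the Mcpt genes. Of the 55 lists, 26 had a called member and 29 had none. Some results that the naming rule selects are not reported here.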

Additional observations from a re-analysis of the deposited data

Results flagged for a closer look

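Of 136 combinations of gene and group checked (68 genes, WT_Con and WT_Half), 9 had 1 library far from the rest on the log2 CPM scale by Dixon's gap-to-range ratio, and chance alone flags about 1 in 20. WT_Half replicate 6 was the low library for 4 genes: Mmp3 at 2.48 CPM (next 7.60), Pnliprp2 at 25.04 CPM (next 69.5), Tkt at 463 CPM (next 555) and Pgk1 at 512 CPM (next 582). WT_Half replicate 1 was low for Cd163 at 1.59 CPM (next 3.39) and for Akr1b7 at 6.63 CPM (next 40.4). WT_Half replicate 4 was lowest for Cldn18 at 0 CPM (next 0.133). WT_Con replicate 2 was the only control with any count for Krt84 at 0.0302 CPM and for Cxcr2 at 0.0604 CPM, the others being at 0.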

How the results depend on the processing

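Calls higher and lower were 691 and 662 by DESeq2, 595 and 637 by limma-voom, 351 and 369 with all 25 libraries in 1 fit, 6 and 1 with the Brunner gland covariate, and 0 and 0 each with controls above 10 CPM of Ctrb1 left out, in Brunner gland rich libraries and in Brunner gland poor libraries; the last 3 leave fewer libraries. With the replicate block, which can use 4 numbered pairs, calls were 0 and 0 (1673 at an unadjusted p under 0.05). Same-numbered libraries correlated at -0.27 to -0.05 after removing group means. These correlations also carry differences in tissue make-up, so they cannot show whether the numbers mark pairs. RLE size factors and no filter stayed within 1.5 times. Leaving out 1 library gave 14 (without WT_Con replicate 1) to 241 (without WT_Half replicate 6) higher and 7 (without WT_Con replicate 1) to 206 (without WT_Con replicate 2) lower. None of the 68 genes followed singly changed sign in these fits, and the signs of other named genes were not followed there. The cause of these shifts in the number of calls was not tested. WT_Full against WT_Half gave 17 calls by DESeq2, 2 by limma-voom and 0 to 2 with 1 library left out. The interaction gave 36 by DESeq2, 1138 by limma-voom and 0 to 0 with 1 library left out. Aldh2KI calls ranged from 4927 to 7477 with 1 library left out. Signs reversed with the Ctrb1-high controls left out for Cpb1 (0.42), Cel (1.40), Prss2 (2.00), Ctrb1 (1.47), Cldn18 (2.72) and Gkn1 (6.12), and in Brunner gland poor libraries for Cpb1 (0.58), Cel (1.61), Prss2 (2.18), Ctrb1 (1.56), Cldn18 (2.33) and Gkn1 (5.96). In both settings the only control left is WT_Con replicate 2. In Brunner gland rich libraries Aldh2 was at 0.061. Depth limits Krt84, Cxcr2, Cxcl2 and S100a8, which had few or no counts in controls.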
